A study of Mus musculus with 15 samples.

Results

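The Trim genes code for tripartite motif proteins, a family built from a RING finger, 1 or more B-boxes and a coiled coil, followed by a C-terminal domain that differs between members. The set described here is every gene on an Illumina mouse bead array whose symbol is Trim and a number, with or without a letter, and that was detected; 1 further Trim symbol was left out by the rule. The probe with the highest mean signal stood for each gene. The table held 34 such symbols with 46 probes, and 25 of them with 33 probes were detected, out of 7669 genes tested. Detected means a detection p under 0.01, which sets the probe against that array's negative controls, on every array of at least 1 group.

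RNA came from bone marrow-derived macrophages of specific pathogen-free C57Bl/6 mice, which are macrophages grown in culture from marrow precursors. Control cells received nothing (3 arrays), and other cells received IFNγ for 18 h (3 arrays) or IFNβ for 18 h (2 arrays). The same 3 conditions were also followed by ultrapure lipopolysaccharide (LPS) of E. coli for 6 h, with 2 arrays for LPS alone, 3 for IFNγ and then LPS, and 2 for IFNβ and then LPS. Its dose is labelled 10 ng/ul, a unit that is in doubt. The series asks how priming with interferon alters the response of macrophages to LPS. The labels do not state the origin of the replicates, whether cultures or mice, and the p-values refer to the scatter of the arrays, possibly a technical one. All 7 arrays with LPS lay on 1 slide and all 8 without it on another, so that LPS and slide cannot be told apart. In these bulk samples a change in the share of cells that carry an RNA cannot be told apart from a change in its amount per cell.

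Most Trim proteins are ubiquitin ligases: the RING finger brings a charged ubiquitin-conjugating enzyme to the protein to be marked, and the C-terminal domain often picks that protein. Many members are known as restriction factors of viruses or as regulators of the RNA and DNA sensors, of NF-κB and of interferon production, and several are themselves induced by interferon. IFNγ, the type II interferon, acts largely through gamma-activated sites (GAS) in promoters, while IFNβ, a type I interferon, acts mainly through interferon-stimulated response elements (ISRE). LPS acts through TLR4, which leads to NF-κB and to IRF3 and thereby to secreted IFNβ.

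The 3 detected members of the mouse Trim30 group, Trim30a, Trim30b and Trim30d, are consecutive with Trim30c on chromosome 7 in the order Trim30b, Trim30c, Trim30a, Trim30d, by the RefSeq annotation of GRCm38.p6. Their windows from 250 bases before to 50 after the annotated start are shown first, because Trim30a and Trim30d responded to both interferons while the fit did not call Trim30b in any interferon comparison. Trim56, which responded to IFNγ and was not called with IFNβ, follows. All 4 windows lie on the minus strand and are printed from 5′ to 3′, from RefSeq: Trim30a is chr7:104465144-104465443, Trim30d is chr7:104507800-104508099, Trim30b is chr7:104358597-104358896 and Trim56 is chr5:137116158-137116457. Capitals mark a match to the ISRE core, which is GAAA, any 2 bases and GAAA, on either strand.
Trim30a: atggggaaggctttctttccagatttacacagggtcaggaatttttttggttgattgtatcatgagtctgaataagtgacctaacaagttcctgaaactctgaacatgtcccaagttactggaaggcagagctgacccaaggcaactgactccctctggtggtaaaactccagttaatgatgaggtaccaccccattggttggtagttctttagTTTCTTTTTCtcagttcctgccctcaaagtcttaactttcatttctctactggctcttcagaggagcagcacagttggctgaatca
Trim30d: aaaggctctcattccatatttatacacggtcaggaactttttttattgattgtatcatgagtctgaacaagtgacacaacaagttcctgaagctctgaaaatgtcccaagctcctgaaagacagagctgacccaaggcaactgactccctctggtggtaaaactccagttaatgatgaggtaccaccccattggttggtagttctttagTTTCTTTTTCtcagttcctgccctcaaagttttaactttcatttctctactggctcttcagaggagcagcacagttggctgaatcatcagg
Trim30b: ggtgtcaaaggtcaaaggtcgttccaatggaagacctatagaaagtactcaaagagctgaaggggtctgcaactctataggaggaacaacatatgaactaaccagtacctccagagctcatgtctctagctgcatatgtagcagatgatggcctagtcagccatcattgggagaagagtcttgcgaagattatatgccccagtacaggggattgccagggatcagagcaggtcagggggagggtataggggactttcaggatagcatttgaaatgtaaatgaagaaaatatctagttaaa
Trim56: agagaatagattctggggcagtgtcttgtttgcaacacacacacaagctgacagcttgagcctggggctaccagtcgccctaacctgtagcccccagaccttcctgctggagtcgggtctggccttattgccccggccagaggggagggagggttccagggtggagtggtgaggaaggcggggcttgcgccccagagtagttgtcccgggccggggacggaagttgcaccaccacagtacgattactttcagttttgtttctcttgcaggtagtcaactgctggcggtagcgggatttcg
The windows of Trim30a and Trim30d were identical at 277 of 295 aligned bases (93.9%), and both held the same ISRE match, TTTCTTTTTC, which reads as the core on the opposite strand. It spans bases -36 to -27 of Trim30a and -41 to -32 of Trim30d, counted from the annotated start as 0. Trim30a has another annotated start, chr7:104446076-104446375 for its window, with the same 10 letters at bases 2 to 11. The Trim30b window was identical to that of Trim30a at 154 of 268 aligned bases (57.46%) and held no such letters, nor did the window of Trim56.

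Over the 4 comparisons of an interferon with its own control, without and under LPS, 11 members passed an adjusted p under 0.05 in at least 1 (interferon-responsive) and 14 passed in none. That division uses the measured values, so the counts below describe it and do not test it. The responsive members were Trim8, Trim16, Trim28, Trim29, Trim30a, Trim30d, Trim32, Trim36, Trim47, Trim56 and Trim69. Next to the threshold lay Trim8 inside, with an adjusted p of 0.0336 in limma's fit of all arrays, and Trim14 outside, with 0.0573. Of the responsive members, 8 were called with IFNγ in the absence of LPS, and 3 (Trim28, Trim29 and Trim69) only under LPS. Trim69 passed the detection filter only through IFNγ and LPS, and Trim29 only through that group and IFNβ. Trim16 passed only through control, IFNβ and LPS. Their place in the set is therefore no support for a response, though the counts below keep them. With detection on all 15 arrays, and fewer genes tested, 7 members were responsive. The map of differences shows all 25 members in the 9 comparisons.

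**Figure D1:**
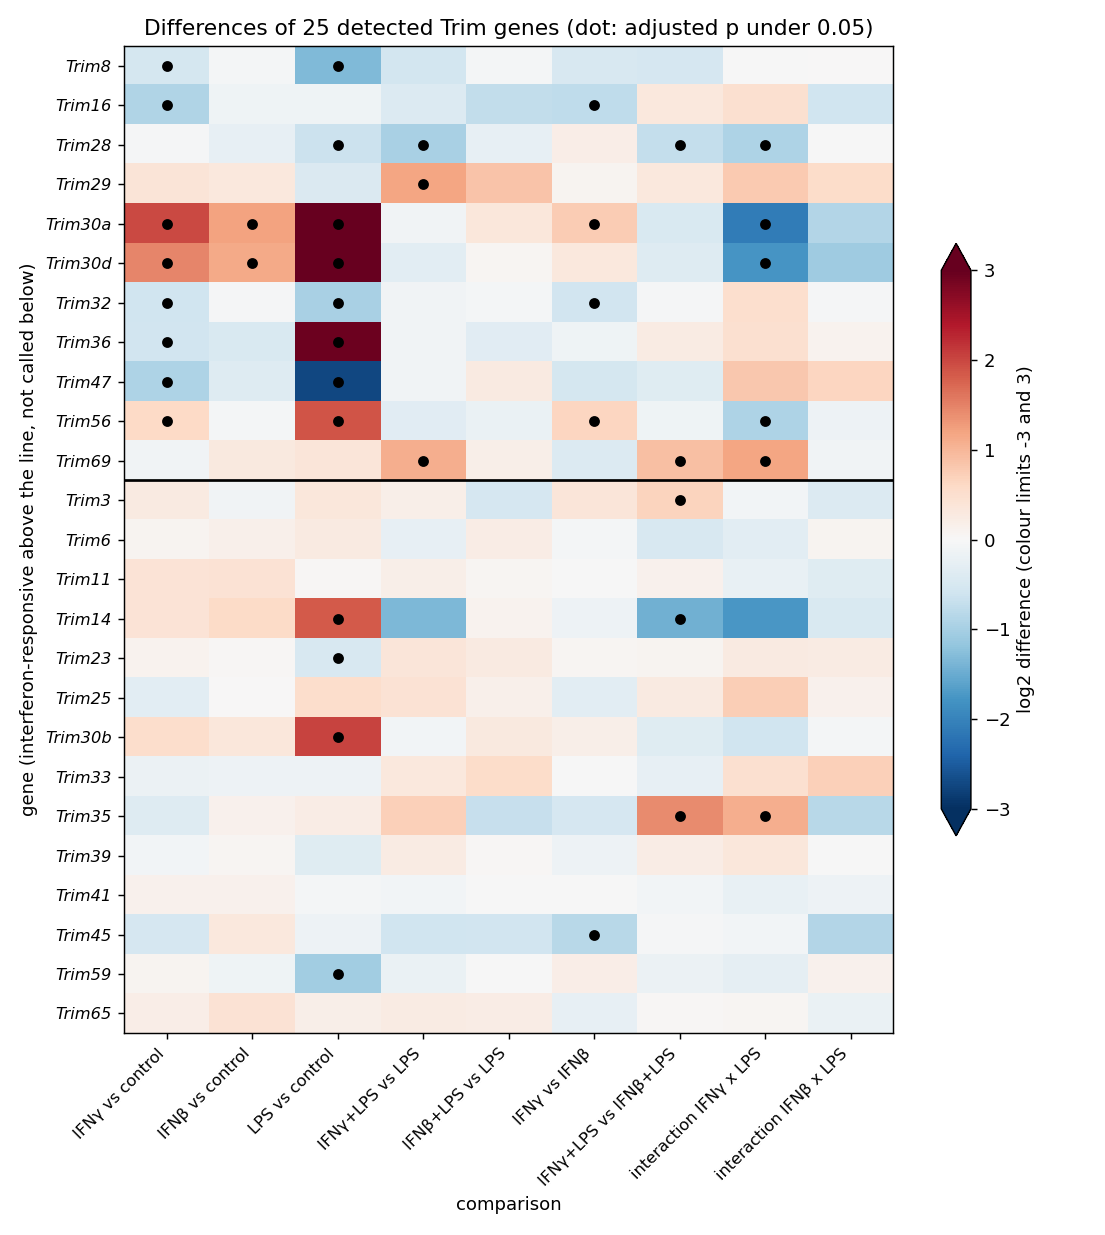
Log2 difference of each of the 25 detected Trim genes (rows) in each of the 9 comparisons (columns), coloured from -3 (blue) to 3 (red), with a dot where the adjusted p is under 0.05. The 11 interferon-responsive genes stand above the line and the 14 others below it. The columns of IFNβ with LPS carry no dot, and the deepest red is that of Trim30a and Trim30d with LPS.

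Trim30a, known in mice as a brake on TLR-driven NF-κB signalling that acts on TAB2 and TAB3, and its neighbour Trim30d rose with each interferon and rose further with LPS. The levels of Trim30a, as log2 intensity on each array, were 8.88, 9.08 and 8.89 in control cells, 11.37, 10.50 and 10.91 with IFNγ, and 10.26 and 10.06 with IFNβ. Under LPS they were 12.44 and 12.87 with LPS alone, 12.56, 12.36 and 12.71 after IFNγ, and 12.70 and 13.29 after IFNβ. No interferon-treated array overlapped the control arrays, and the 7 arrays with LPS all lay above the 8 without it. Trim30a was 3.93-fold higher with IFNγ (log2 difference 1.98, SE 0.217, n = 3 and 3, limma adjusted p 1e-05) and 2.32-fold higher with IFNβ (1.21, SE 0.243, n = 3 and 2, limma adjusted p 0.025). LPS alone raised it 13-fold (3.70, SE 0.243, limma adjusted p 1.53e-08). The IFNβ call did not hold when any 1 of the 3 control or the 2 IFNβ arrays was left out, with adjusted p between 0.0576 and 0.307 and log2 differences of 1.11 to 1.31.

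Trim30d showed the same order of groups at a tighter spread. Its log2 intensities were 6.07, 6.07 and 6.00 in control cells, 7.56, 7.35 and 7.59 with IFNγ and 7.33 and 7.05 with IFNβ. With LPS they were 10.36 and 10.00, after IFNγ and LPS 9.87, 9.83 and 9.88, and after IFNβ and LPS 10.38 and 10.11. The 3 groups without LPS were apart from each other on every array, with control lowest and IFNγ highest. The rise was 2.74-fold with IFNγ (1.45, SE 0.138, limma adjusted p 2.54e-06), 2.21-fold with IFNβ (1.14, SE 0.155, limma adjusted p 0.00137) and 17.6-fold with LPS (4.13, SE 0.155, limma adjusted p 5.5e-11). The difference between IFNγ and IFNβ was not called for Trim30d (0.31, 95% interval -0.02 to 0.65, limma adjusted p 0.18).

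Trim30b was detected on no control array and on both LPS arrays, at log2 intensities of 7.16 and 6.95, and LPS raised it at least 2.86-fold (limma adjusted p 3.95e-06). Trim30b passed the detection filter only through the groups with LPS, so it had to be high in at least 1 of them. The LPS call of Trim30b is therefore no support for a difference. Its control arrays read 4.87, 4.97 and 5.23, and its IFNγ arrays 5.13, 5.71 and 5.81, of which 2 were detected. With IFNγ it was at least 1.01-fold higher, which was not called (limma adjusted p 0.0711), and it was called when IFNγ replicate 1 was left out (adjusted p 0.0147) and under median scaling (adjusted p 0.0292) and cyclic loess (0.023). A lower bound is given where a gene was not well above background on any array of a group; the dim group then enters at the dimmest detected probe on every array, unless the gene itself was brighter. Trim30a, Trim30b and Trim30d are paralogs, and neither probe nor transcript sequences were used here, so whether RNA of one contributed to the signal of another was not tested.

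**Figure D2:**
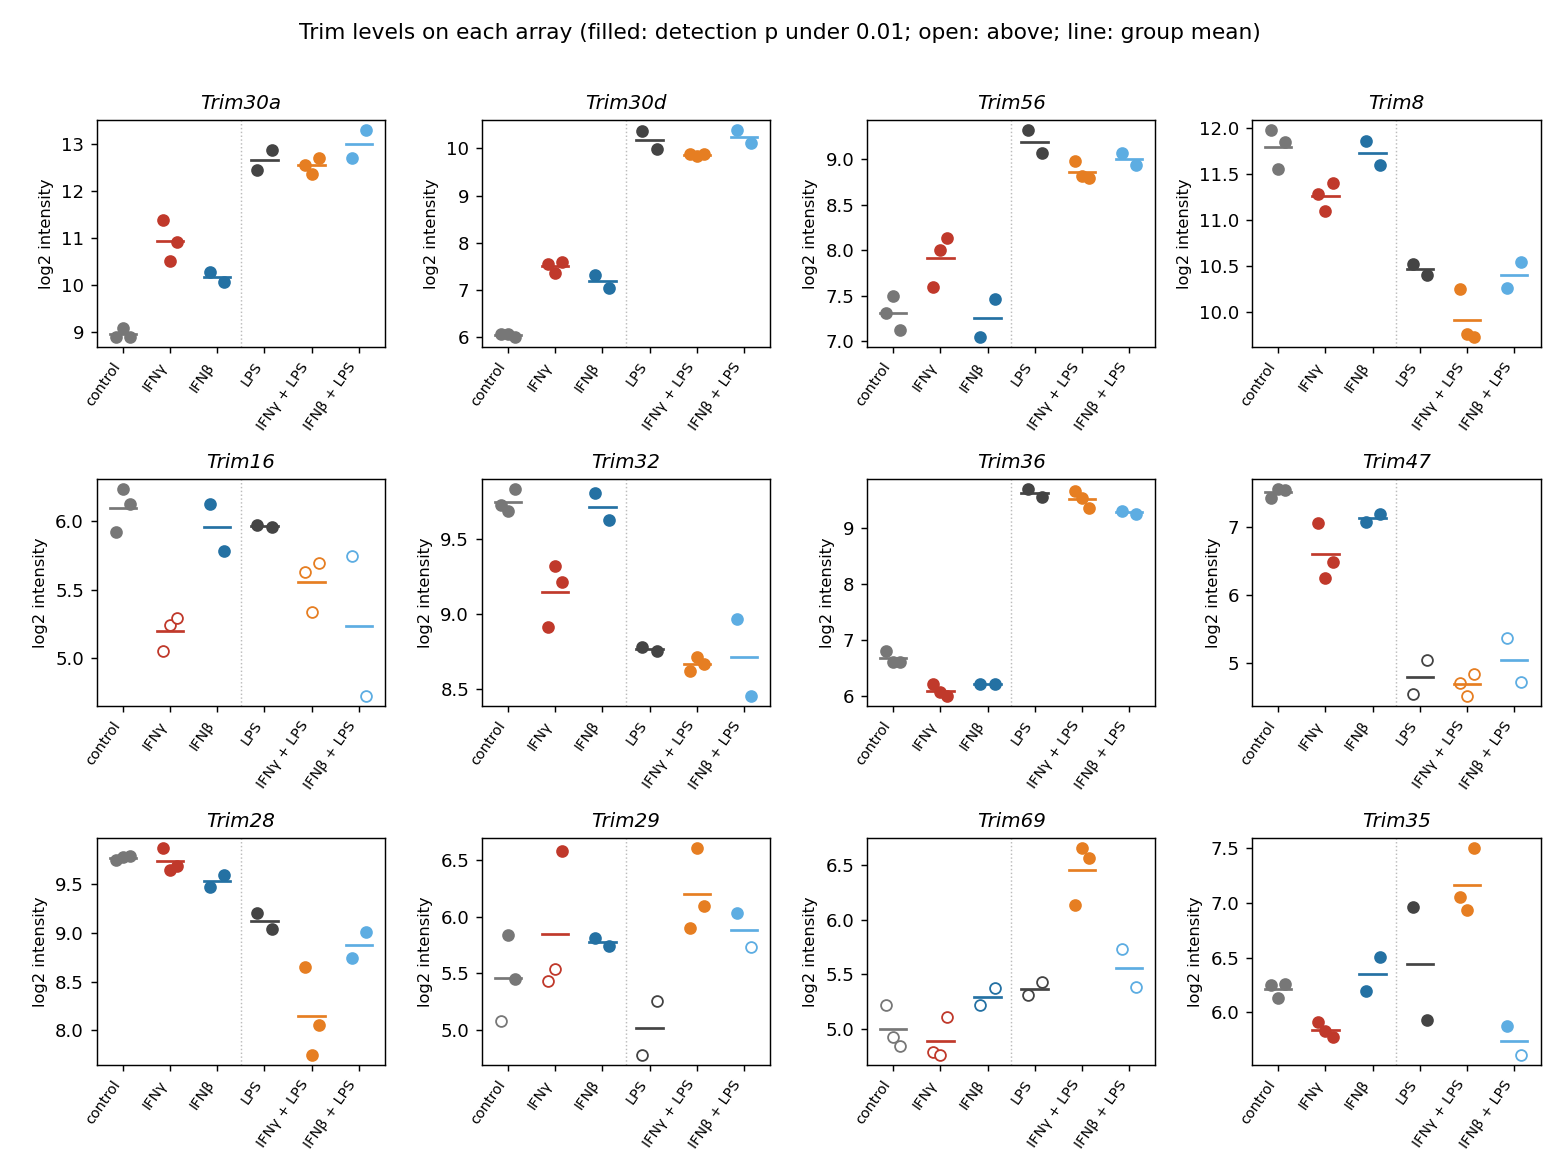
Log2 intensity (y axis, own scale in each panel) of 12 Trim genes on each of the 15 arrays, by group (x axis); filled points are detected at p under 0.01, open points are not, and the line is the group mean. Trim30a and Trim30d step up from control to interferon to LPS, Trim47 falls below detection in all groups with LPS, and Trim69 is detected on the 3 arrays of IFNγ and LPS only.

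Of the 25 members, 8 were called with IFNγ in the absence of LPS, 3 higher and 5 lower, which is 32% against 26.1% of all genes tested, 11.5% higher and 14.5% lower. Beside both Trim30 genes, Trim56, an interferon-induced ligase that in cells of mouse and man acts on STING and cGAS, was the third to rise. Its log2 intensities were 7.31, 7.50 and 7.12 in control cells and 7.60, 8.01 and 8.13 with IFNγ, against 7.05 and 7.47 with IFNβ. With LPS they were 9.32 and 9.07, after IFNγ and LPS 8.98, 8.82 and 8.79, and after IFNβ and LPS 9.06 and 8.93. IFNγ and control arrays did not overlap, while 1 IFNβ array lay among the controls and the other just below them. The rise was 1.52-fold with IFNγ (0.60, SE 0.17, limma adjusted p 0.0173) and 3.68-fold with LPS (1.88, SE 0.19, limma adjusted p 1.42e-06), and with IFNβ the difference was -0.05 (95% interval -0.46 to 0.35). The IFNγ call did not hold without control replicate 3, IFNγ replicate 2 or IFNγ replicate 3, with adjusted p of 0.0551 to 0.0806.

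The 5 responsive members Trim16, Trim47, Trim32, Trim8 and Trim36 fell with IFNγ. Trim16, which lacks a RING finger and is known for its part in autophagy of damaged lysosomes, read 5.92, 6.23 and 6.13 log2 units in control cells, 5.05, 5.24 and 5.30 with IFNγ, and 6.13 and 5.78 with IFNβ. With LPS it read 5.97 and 5.96, after IFNγ and LPS 5.63, 5.34 and 5.70, and after IFNβ and LPS 5.75 and 4.72. It was detected on all control and IFNβ arrays and on no IFNγ array, and it was at least 1.45-fold lower with IFNγ than in control cells (limma adjusted p 0.00651). Trim16 passed the detection filter only through the control, IFNβ and LPS groups, so it was kept where it was high. This call is therefore no support for a difference. Trim47, known as an activator of RIG-I signalling in endothelial cells, read 7.44, 7.56 and 7.55 in control cells, 7.07, 6.25 and 6.49 with IFNγ and 7.08 and 7.20 with IFNβ. No interferon array reached the lowest control array of Trim47. It was 1.89-fold lower with IFNγ (-0.92, SE 0.217, limma adjusted p 0.00608), and the difference of -0.38 with IFNβ was not called (limma adjusted p 0.831). On the LPS arrays it read 4.54 and 5.05, after IFNγ and LPS 4.70, 4.52 and 4.84, and after IFNβ and LPS 5.38 and 4.73. It was detected on none of those 7 arrays, and LPS alone left it at least 3.48-fold lower than in control cells (limma adjusted p 4e-07). Trim47 passed the detection filter only through the groups without LPS, so it was kept where it was high. Its LPS call is therefore no support for a difference.

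Trim32, a ligase of NHL type known for acting on STING and on sarcomere proteins, read 9.73, 9.69 and 9.83 in control cells, 8.92, 9.32 and 9.21 with IFNγ and 9.81 and 9.63 with IFNβ. On the LPS arrays it read 8.78 and 8.75, after IFNγ and LPS 8.62, 8.72 and 8.67, and after IFNβ and LPS 8.97 and 8.45. All IFNγ arrays lay below all control and IFNβ arrays, by 1.52-fold against control (-0.60, SE 0.151, limma adjusted p 0.0087), and LPS lowered it 1.98-fold (-0.98, SE 0.169, limma adjusted p 0.000209). Trim8, a ligase without a C-terminal domain that acts on TAK1 and TRIF, read 11.98, 11.56 and 11.85 in control cells, 11.28, 11.10 and 11.41 with IFNγ and 11.87 and 11.60 with IFNβ. In LPS-treated cells it read 10.53 and 10.40, after IFNγ and LPS 10.25, 9.76 and 9.73, and after IFNβ and LPS 10.27 and 10.54. Every IFNγ array was below every array of its own control, without and under LPS. The fall was 1.45-fold with IFNγ (-0.53, SE 0.172, limma adjusted p 0.0336) and 2.52-fold with LPS (-1.33, SE 0.192, limma adjusted p 4.52e-05). The IFNγ call of Trim8 was lost without control replicate 1 or 3 or IFNγ replicate 1 or 2, with adjusted p of 0.0663 to 0.131, and under median scaling (0.055) and cyclic loess (0.114).

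Trim36, a microtubule-associated ligase of the COS, fibronectin and SPRY type, moved in opposite directions with IFNγ and with LPS. It read 6.81, 6.60 and 6.60 in control cells, 6.20, 6.07 and 6.00 with IFNγ and 6.21 and 6.22 with IFNβ. Under LPS alone it read 9.69 and 9.55, after IFNγ and LPS 9.65, 9.53 and 9.36, and after IFNβ and LPS 9.30 and 9.25. All interferon arrays without LPS lay below the controls, and all LPS arrays lay above them. IFNγ lowered it 1.49-fold (-0.58, SE 0.125, limma adjusted p 0.00331) and LPS raised it 7.73-fold (2.95, SE 0.139, limma adjusted p 5.24e-10). The gene has 3 detected probes: the LPS rise was called on each (2.95, 2.90 and 2.15), while the IFNγ fall was called on the brightest probe alone, the others giving -0.31 and 0.40 with adjusted p of 0.19 and 0.279. It was also lost with no background correction (-0.23, adjusted p 0.0585).

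With IFNβ in the absence of LPS, 2 of the 25 members were called, Trim30a and Trim30d, both higher, which is 8% against 1.12% of all genes tested, 0.939% higher and 0.183% lower. The other 23 members had log2 differences from -0.45 in Trim36 to 0.57 in Trim14, the latter a fitted value against a control group at background. The comparisons of IFNγ and of IFNβ with control share the 3 control arrays, so their values are given side by side and no overlap is drawn from them. Between the interferons themselves, without LPS, 5 members were called (20%, against 20.5% of all genes tested, 9.57% higher and 11% lower). Trim30a (0.76, SE 0.243, limma adjusted p 0.0384) and Trim56 (0.65, SE 0.19, limma adjusted p 0.0253) were higher with IFNγ. Trim32 (-0.57, SE 0.169, limma adjusted p 0.0282) was lower, and Trim16 (adjusted p 0.0379) and Trim45 (adjusted p 0.0186) were at least 1.32-fold and 1.20-fold lower. Trim45 passed the detection filter through the IFNβ arrays alone, so it had to be high there, and its place among the 5 is no support for a difference. Nor is that of Trim16, which passed only through the control, IFNβ and LPS groups. Without IFNβ replicate 1 none of these 5 differences was called, with adjusted p of 0.267 for Trim16, 0.106 for Trim30a, 0.201 for Trim32, 0.0988 for Trim45 and 0.268 for Trim56, and without IFNβ replicate 2 only 1 was. The count was 3 without control replicate 3 or IFNγ replicate 1, and 2 without IFNγ replicate 2 or 3.

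LPS alone changed 12 of the 25 members against control, 6 higher and 6 lower, which is 48% against 55.2% of all genes tested, 21.2% higher and 34% lower. The risers were Trim30d, Trim30a, Trim36, Trim30b, Trim56 and Trim14, a mitochondrial adaptor of antiviral MAVS signalling that has no RING finger. Trim14 was detected on no control array and rose at least 2.89-fold, to log2 intensities of 7.40 and 6.74 from 4.94, 5.51 and 5.24 (limma adjusted p 0.00246). Trim14 was kept only through the groups of IFNβ, of LPS, and of IFNβ and LPS. Trim30b was kept only through the groups with LPS, and Trim47 only through those without it. The LPS calls of Trim14, Trim30b and Trim47 are therefore no support for a difference. Beside Trim47, Trim8 and Trim32, the members that fell were Trim59, a membrane-bound ligase (-1.05, SE 0.255, limma adjusted p 0.00307), Trim28 (-0.65, SE 0.21, limma adjusted p 0.0174) and Trim23 (-0.48, SE 0.19, limma adjusted p 0.0456), a ligase with an ARF domain. The call of Trim59 was lost without LPS replicate 1 (-0.70, adjusted p 0.0684), that of Trim28 without LPS replicate 2 (-0.57, adjusted p 0.109) and under cyclic loess (-0.46, adjusted p 0.085). The call of Trim23 was lost in 7 of the 15 fits that left out 1 array, and its other detected probe was not called. Of the 11 responsive members 8 were called with LPS, against 4 of the 14 others; the LPS and the interferon comparisons share control arrays, so this is given as a description. The median log2 difference of the 25 members was 0.03 with LPS and 0.07 with IFNγ, against -0.18 and -0.07 over all genes tested.

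Under LPS, IFNγ priming changed 3 of the 25 members, 2 higher and 1 lower, 12% against 12.8% of all genes tested, 6.81% higher and 5.96% lower. Trim28, the KAP1 corepressor that joins KRAB zinc finger proteins to heterochromatin factors, fell. It read 9.75, 9.78 and 9.79 in control cells, 9.87, 9.65 and 9.69 with IFNγ and 9.48 and 9.60 with IFNβ. With LPS it read 9.21 and 9.04, after IFNγ and LPS 8.65, 7.75 and 8.05, and after IFNβ and LPS 8.74 and 9.01. The 3 arrays of IFNγ and LPS were the lowest of all 15. Trim28 was 1.96-fold lower than with LPS alone (-0.97, SE 0.21, limma adjusted p 0.00827) and 1.65-fold lower than after IFNβ and LPS (-0.72, SE 0.21, limma adjusted p 0.0365). The first of these calls was lost without LPS replicate 1 (-0.89, adjusted p 0.0756), and on the arrays of the LPS slide alone (adjusted p 0.0876).

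Trim69, a centrosomal ligase also known as an interferon-induced restriction factor in human cells, was detected on the 3 arrays of IFNγ and LPS and on no other array. It read 5.22, 4.92 and 4.85 in control cells, 4.79, 4.76 and 5.11 with IFNγ, and 5.22 and 5.37 with IFNβ, all at background. On the LPS arrays it read 5.31 and 5.43, after IFNγ and LPS 6.13, 6.66 and 6.56, and after IFNβ and LPS 5.73 and 5.38. IFNγ priming left it at least 1.66-fold higher than LPS alone (limma adjusted p 0.00253) and at least 1.56-fold higher than IFNβ priming (limma adjusted p 0.00655). The latter was not called without IFNβ and LPS replicate 2 (0.72, adjusted p 0.089). Since Trim69 passed the detection filter through that group alone, it had to be high there, and these calls are no support for a difference.

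Trim29, a member without a RING finger that is known to act on NEMO and STING in alveolar macrophages and other cells, read 5.08, 5.84 and 5.45 in control cells, 5.43, 5.54 and 6.58 with IFNγ and 5.81 and 5.74 with IFNβ. In LPS-treated cells it read 4.78 and 5.25, after IFNγ and LPS 5.90, 6.61 and 6.10, and after IFNβ and LPS 6.03 and 5.73. It was detected on neither LPS array and on all 3 of IFNγ and LPS, at least 1.39-fold higher (limma adjusted p 0.028). Trim29 passed the detection filter only through IFNβ and through IFNγ and LPS, so it was kept through groups where it was high. Its higher call is therefore no support for a difference. That call was lost without either LPS array or without replicate 2 or 3 of IFNγ and LPS, with adjusted p of 0.0602 to 0.202. Against LPS alone the IFNβ-primed arrays were at least 1.12-fold higher, which was not called (limma adjusted p 0.325).

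One array bears on these values. In a principal component analysis IFNγ and LPS replicate 1 stood at 2.03 on the second component, between the other replicates of its group (19.2 and 18.7) and the LPS arrays (-22.0 and -18.3); its part in the results was tested by leaving it out. Without it 5 members were called between IFNγ and LPS and LPS alone, with Trim8 (-0.72, adjusted p 0.0138) and Trim14 (-1.75, adjusted p 0.00845) added, both lower. With all arrays, Trim14 was 1.34 log2 units lower than with LPS alone (SE 0.432, limma adjusted p 0.0573), and its 3 arrays of IFNγ and LPS read 6.54, 5.49 and 5.15. Of these only replicate 1 was detected, so that without it the Trim14 value is a fitted one with that group at background. Trim14 was kept through LPS alone and the groups with IFNβ, and not through IFNγ and LPS. Neither of its values here is support for a difference.

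IFNβ priming changed none of the 25 members against LPS alone in limma's fit, where 0.6% of all genes tested were called, 0.352% higher and 0.248% lower; 7 members had an unadjusted p under 0.05. The fitted log2 differences ran from -0.73 in Trim16 to 0.87 in Trim29, each with 1 of its 2 groups at background. Without IFNβ and LPS replicate 1, which leaves 1 array in that group, the fitted difference of Trim16 was -1.24. Trim16 was detected on no array of IFNβ and LPS and passed the filter only through control, IFNβ and LPS alone. That value is therefore no support for a difference. Between the primed groups under LPS, 5 members were called (20%, against 13.4% of all genes tested, 6.83% higher and 6.58% lower). Trim3 (0.68, SE 0.185, limma adjusted p 0.0267), Trim35 (1.42, SE 0.25, limma adjusted p 0.00219) and Trim69 were higher after IFNγ, and Trim14 (-1.44, SE 0.432, limma adjusted p 0.041) and Trim28 were lower. Trim14 was detected on 1 array of IFNγ and LPS and was kept only through IFNβ, LPS, and IFNβ and LPS. Its place among the 5 is therefore no support for a difference. The other detected probe of Trim3 was not called (0.53, SE 0.334, limma adjusted p 0.326 over all probes). The calls of Trim14 and Trim28 were each lost in 9 of the 15 fits that left out 1 array, with adjusted p up to 0.385 and 0.236. That of Trim3, a ligase of filamin and NHL type known to act on TLR3, was lost in 4, with adjusted p up to 0.131. The count of 5 fell to 3 without any 1 control or IFNβ array, to 2 without replicate 2 or 3 of IFNγ and LPS, and to 1 without replicate 2 of IFNβ and LPS. On the LPS slide alone, 1 of the 5 was called.

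The effect of IFNγ differed between cells without and with LPS for 6 members, by the interaction term of the fit (24%, against 12.5% of all genes tested, 6.04% positive and 6.48% negative). It was smaller under LPS for Trim30a (-2.09, SE 0.326, limma adjusted p 0.000684), Trim30d (-1.77, SE 0.208, limma adjusted p 5.5e-05) and Trim56 (-0.93, SE 0.255, limma adjusted p 0.028). These are the 3 genes that rose with IFNγ alone; in LPS-treated cells their IFNγ differences were -0.11, -0.32 and -0.33, none of them called. This comparison shares its arrays with both IFNγ comparisons. The interaction was negative for Trim28 (-0.94, SE 0.281, limma adjusted p 0.0434), through its fall under LPS, and positive for Trim35 (1.10, SE 0.336, limma adjusted p 0.0468). It was also positive for Trim69 (limma adjusted p 0.00701), but the other 3 groups of that contrast were at background and the gene was kept through the group where it was high, so its size is not given and the call is no support for a difference.

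Trim35, a ligase known to act on TRAF3 and PKM2, read 6.25, 6.13 and 6.26 in control cells, 5.91, 5.83 and 5.77 with IFNγ and 6.19 and 6.51 with IFNβ. Under LPS alone it read 6.96 and 5.93, after IFNγ and LPS 7.05, 6.93 and 7.50, and after IFNβ and LPS 5.87 and 5.61. The 2 LPS arrays were apart by more than 1 log2 unit, so that the IFNγ-primed group overlapped with LPS alone while it lay above IFNβ priming on every array. The interaction of Trim35 was lost in 10 of the 15 fits without 1 array, with adjusted p from 0.0586 to 0.247, the latter without LPS replicate 2; those of Trim28 and Trim56 were lost in 12 and 7, with adjusted p up to 0.129 and 0.108. The count of 6 fell to 3 without control replicate 1 or 3, IFNγ replicate 3, or replicate 3 of IFNγ and LPS. For IFNβ no member passed the interaction test in limma's fit, where 0.156% of all genes did, 0.0261% positive and 0.13% negative; 4 had an unadjusted p under 0.05, and the most negative value was that of Trim30d (-1.07, SE 0.23, limma adjusted p 0.0784).

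**Figure D3:**
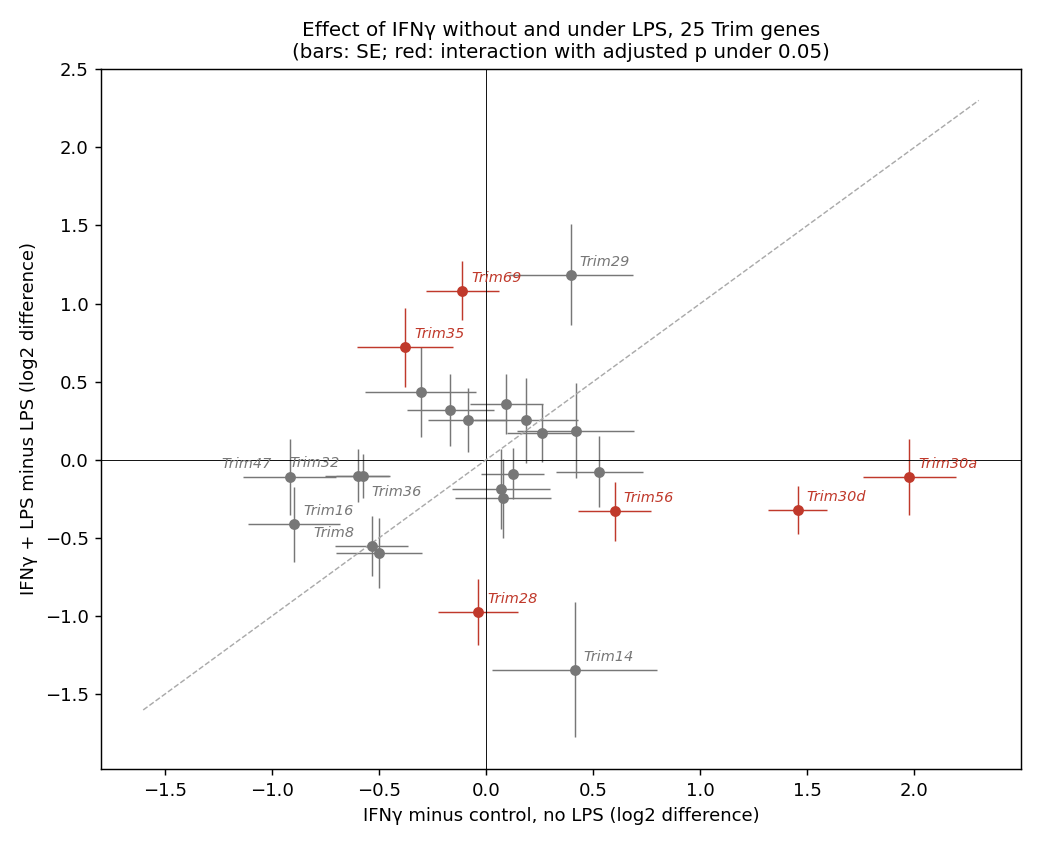
Log2 difference made by IFNγ in cells without LPS (x axis) and with LPS (y axis) for the 25 Trim genes, with bars of 1 SE; red marks the 6 genes with an interaction at an adjusted p under 0.05, and the dashed line marks equal effects. Trim30a, Trim30d and Trim56 lie right of zero and just below it in height, and Trim69 and Trim35 lie left of zero and above it.

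The 14 members outside the responsive set included 7 that were called in none of the 9 comparisons. Fitted IFNγ differences of the 14 without LPS ran from -0.50 to 0.53 and IFNβ differences from -0.16 to 0.57, with Trim14 and Trim30b at background in control cells. The -0.50 is that of Trim45, which was detected on 1 control array and no IFNγ array and was kept only through IFNβ. The 4 with the highest mean signal were Trim41, Trim39, Trim11 and Trim3. Trim41, a ligase known to act on cGAS, read 8.68, 8.99 and 9.04 in control cells, 9.32, 8.87 and 8.90 with IFNγ, and 9.10 and 8.99 with IFNβ. It read 8.83 and 8.85 with LPS, 8.71, 8.84 and 8.71 after IFNγ and LPS, and 8.75 and 8.91 after IFNβ and LPS. The groups overlapped in all 7 comparisons of 1 group with another. Its 95% interval for IFNγ against control was -0.19 to 0.44 log2 units, which leaves out the fitted IFNγ changes of Trim8 and Trim56. Their own intervals, -0.90 to -0.16 and 0.24 to 0.97, overlap that of Trim41, and the genes were not tested against each other.

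Trim39, a ligase that acts in apoptosis and the cell cycle, read 7.89, 8.14 and 7.94 in control cells, 7.56, 8.01 and 8.14 with IFNγ and 8.26 and 7.82 with IFNβ. With LPS it read 7.72 and 7.55, after IFNγ and LPS 7.70, 7.76 and 8.20, and after IFNβ and LPS 7.70 and 7.64. The groups overlapped in each interferon comparison. Trim11, a ligase of the SPRY type that acts in protein quality control, read 6.99, 7.36 and 7.84 in control cells, 7.24, 8.25 and 7.95 with IFNγ and 7.81 and 7.84 with IFNβ. On the LPS arrays it read 7.68 and 7.18, after IFNγ and LPS 7.22, 7.64 and 8.0, and after IFNβ and LPS 7.44 and 7.55. The spread among its control arrays was wider than any difference between its group means, and the 95% interval for IFNγ was -0.17 to 1.01. Trim3 read 7.29, 7.24 and 7.73 in control cells, 7.58, 7.83 and 7.63 with IFNγ and 7.20 and 7.43 with IFNβ. In LPS-treated cells it read 7.91 and 7.61, after IFNγ and LPS 7.72, 8.10 and 7.98, and after IFNβ and LPS 7.16 and 7.35, where both IFNβ-primed arrays lay below the 5 others with LPS.

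Several members with known roles in innate signalling were among those not called with interferon. Trim25, the ligase that activates RIG-I, had an IFNγ difference of -0.31 (95% interval -0.86 to 0.25) and an LPS difference of 0.54 (95% interval -0.08 to 1.16, limma adjusted p 0.13); its control arrays ran from 5.82 to 6.32 and its LPS arrays from 6.57 to 6.79. Trim33, a chromatin reader with a PHD finger and a bromodomain that acts on SMAD4, differed by -0.17 with IFNγ and -0.14 with LPS. Trim23 differed by 0.09 with IFNγ and 0.03 with IFNβ on its brightest probe. Its other detected probe gave -0.38 with IFNγ (SE 0.254, limma adjusted p 0.308 over all probes) and -0.43 with IFNβ (SE 0.284, limma adjusted p 0.847). The IFNγ intervals of Trim25 and of the brightest Trim33 probe (-0.60 to 0.27) reach down to the fitted fall of Trim8. That of the brightest Trim23 probe (-0.27 to 0.46) does not, and the 2 Trim23 probes differ in sign.

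By type of C-terminal domain, members with a PRY-SPRY domain and a RING finger made up 4 of the responsive and 8 of the other members. Both members without a C-terminal domain, Trim8 and Trim56, were responsive and moved in opposite directions with IFNγ. Of each of 3 further types, 1 member was responsive and 1 was not: PHD and bromodomain (Trim28 and Trim33), filamin and NHL or NHL (Trim32 and Trim3), and PRY-SPRY without a RING finger (Trim16 and Trim14).

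Promoter windows were at hand for 15 of the 25 members, 7 responsive and 8 others. The ISRE core, searched on both strands, was found in the windows of Trim30a and Trim30d and of no other member, and in 3.44% of all 32851 windows of mouse genes. The GAS motif TTCNNNGAA, which reads the same on both strands, was found in Trim45 alone, against 8.3% of all windows. A loose NF-κB motif (GGG, any 5 bases, CC; both strands), which may overlap the others, was found in 6 of the 7 responsive and 6 of the 8 other members, against 50.79% of all windows. A match is a string of letters and not a site shown to be used, and the members that fell with IFNγ are covered only in part, with windows for Trim32 and Trim47.

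**Figure D4:**
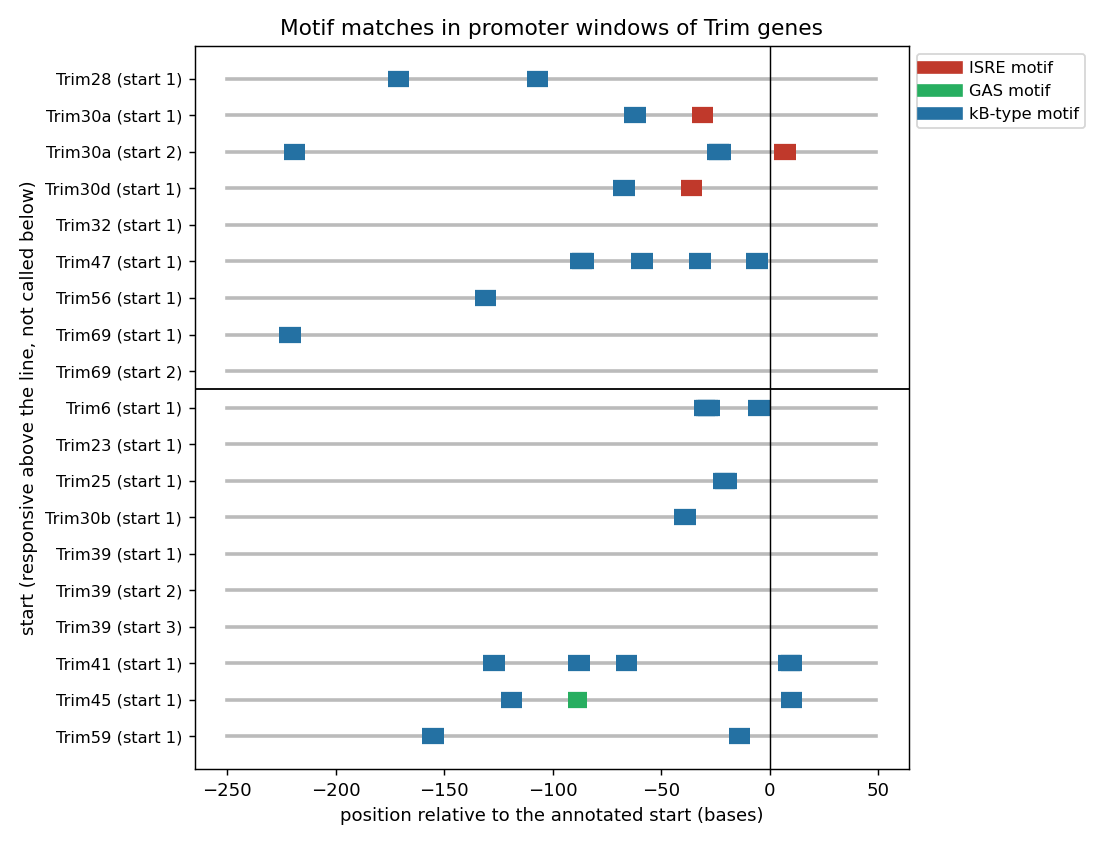
Matches of 3 motifs (coloured blocks) along the promoter windows of 15 Trim genes (rows, by annotated start); the x axis is the position in bases relative to the annotated start. ISRE matches (red) appear in the 3 rows of Trim30a and Trim30d, and the GAS match (green) in Trim45.

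Genes that work with Trim ligases were read in the same fit, each list described by its counts. Of all genes tested, 11.5% were called higher and 14.5% lower with IFNγ. The shares were 0.939% and 0.183% with IFNβ, and 21.2% and 34% with LPS. The lists were not tested against these shares. Of 3 proteins of Trim type under other names, Pml, the core protein of PML bodies, rose with IFNγ (1.47, SE 0.136, limma adjusted p 1.93e-06) and Mefv (pyrin) and Mid1 were not called, while all 3 rose with LPS, Mefv by 4.17. Of 8 ubiquitin-conjugating enzymes tested, 1 rose and 2 fell with IFNγ: Ube2l6, a conjugating enzyme for ISG15, by 0.99 (SE 0.117, limma adjusted p 2.06e-05), and Ube2e2 and Ube2e3 with -0.99 and -0.57. With LPS 4 rose and 1 fell, and Ube2l6 was also the 1 called with IFNβ (0.74, SE 0.131, limma adjusted p 0.0101). The median IFNγ difference of these enzymes was -0.20, against -0.07 over all genes tested.

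Of 17 signalling proteins that Trim ligases are known to act on, 3 rose and 2 fell with IFNγ. Over all genes tested, 26.1% were called with IFNγ, 1.12% with IFNβ, 55.2% with LPS and 12.8% with IFNγ under LPS. Among the signalling proteins, Dhx58 (LGP2) rose by 2.03 with IFNγ and Irf7 by 2.14, with Ikbke at 0.70. Irf3 (-0.64) and Ikbkg, the NEMO subunit (-0.48), fell. With LPS 11 rose and 3 fell, Ddx58 (RIG-I) by 4.24 and Ifih1 (MDA5) by 4.48. None was called between IFNγ and LPS and LPS alone in limma's fit. Of 13 other ubiquitin ligases of innate immunity, 5 rose and 0 fell with IFNγ, among them Peli1 by 2.03 and the LUBAC subunits Rbck1 and Rnf31 by 1.22 and 0.99, and 0 were called with IFNβ. Of 11 deubiquitinases, 3 rose and 2 fell with IFNγ, and Usp18, the enzyme that removes ISG15, rose by 2.81 with IFNγ, 2.16 with IFNβ and 5.98 with LPS.

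The median IFNγ differences were 0.27 for the signalling proteins, 0.35 for the ligases and 0.30 for the deubiquitinases, against -0.07 over all genes tested. Of 6 PML body components, Daxx and Sp100 rose with IFNγ by 1.11 and 1.08, and Isg20 and Daxx were lower after IFNγ and LPS than with LPS alone (-2.25 and -0.89). The interaction of IFNγ with LPS was negative and called for Pml (-1.54), Ube2l6 (-1.12), Dhx58 (-2.33), Irf7 (-2.53), Peli1 (-2.60), Usp18 (-3.32) and Daxx (-2.0). In the ligases other than Trim genes 0 interactions were positive and 5 negative among 13, and in the 25 Trim genes 2 were positive and 4 negative. Over all genes tested, 6.04% were positive and 6.48% negative. Of 11 interferon readout genes, 10 rose with IFNγ, 6 with IFNβ and 11 with LPS, against 11.5%, 0.939% and 21.2% of all genes tested.

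All 6 macrophage genes in the table, Adgre1, Fcgr1, Lyz2, Itgam, Mertk and Cd14, were detected on 14 or 15 arrays. Of markers of other cells, Cd3e was detected on 1 array and Klrb1c and Cpa3 on 0. Pf4 and 1 probe of Ltf were detected on all arrays, and 1 probe of Cd79b on 11. The neutrophil genes Ngp and Camp were detected on 14 and 10 arrays, and Elane and the B cell gene Ms4a1 on 4 each. Itga2b was detected on 0. The summed linear level of 4 neutrophil genes was 239 to 290 after IFNγ and LPS and 328 to 563 in the other groups, and Cd79b, the 1 B cell gene tested, ran from 32.5 to 76.3 in both primed groups with LPS and from 76.1 to 124 elsewhere. Clec9a, the 1 dendritic cell marker tested of 4 listed, was detected on the 6 arrays with IFNγ and on no other. Its linear levels were 65.7 to 124 there, against 26.1 to 34.4. It passed the detection filter only through the groups with IFNγ, so these levels are no support for a difference. The part of these markers in the Trim differences was not tested. Median raw intensity per array ran from 143 to 241, between 9342 and 11047 probes were detected, and arrays of a group correlated at 0.979 to 0.993.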

How the data were processed

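Biotin-labelled total RNA was hybridised to Illumina bead arrays, per the labels. The deposited table gives linear mean bead intensity for every probe and a detection p-value, per the file headers; the scanner software is not named in the sources used here. The authors' deposited log2 values, of unstated normalization, served as an alternative.

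Intensities were corrected with limma 3.58.1 (R 4.3.3) by the normal-exponential model from detection p-values (offset 16), quantile-normalized and put on the log2 scale. Probes were kept when all arrays of 1 or more groups had a detection p under 0.01 (11117 of 15978), and the brightest probe by mean stood for each gene. The symbols are the platform's, for 14994 probes; 984 had none. Limma fitted the 6 group means to all 15 arrays with empirical Bayes; two-sided p-values of 9 comparisons were adjusted by Benjamini-Hochberg over 7669 genes; calls are adjusted p under 0.05. The fit was tested on simulated data. Precision is limited by the number of arrays.

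The members, the lists and the tests were chosen with earlier results of these data known. Every member could be named; values on every array were given for the responsive members, those called in an interaction, the 4 brightest others and, as chosen after their values were seen, Trim30b and Trim14 in part. From each other list up to 4 of the largest called and 2 of the largest uncalled genes could be named. Promoter windows are RefSeq's on GRCm38.p6, searched with Python 3.11.15 and aligned with Biopython 1.88. Replicate numbers did not pair the arrays. Alternatives were another background correction, offset, normalization, filter, variance model, probe rule, block, subset of arrays, the authors' values and leaving out each array; array weights and leaving out both arrays of lowest weight were added after seeing the data.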

Additional observations from a re-analysis of the deposited data

Results flagged for a closer look

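The effect of IFNγ on 6 Trim genes differed between cells without and with LPS by the interaction term of limma's fit, and these are named for that reason. The interaction was -2.09 for Trim30a (adjusted p 0.000684), -1.77 for Trim30d (adjusted p 5.5e-05), -0.93 for Trim56 (adjusted p 0.028) and -0.94 for Trim28 (adjusted p 0.0434), as log2 differences of differences. It was 1.10 for Trim35 (adjusted p 0.0468). The fitted value for Trim69 was 1.19 (adjusted p 0.00701), with 3 of its 4 groups at background and the gene kept through the 4th, where it was high, so neither the value nor its call supports a difference. Those of Trim30a and Trim30d were called under every alternative run and without any 1 of the 15 arrays. Slide and LPS cannot be told apart in these values.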

How the results depend on the processing

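No named value changed its direction under any alternative, and 20 of 41 named calls held under every one that kept the gene. The calls of Trim69 among them say nothing of stability, since it was kept through the group where it was high. The same limit holds for Trim16 with IFNγ and for Trim14, Trim30b and Trim47 with LPS, each kept only through groups where it was high. Counts of Trim genes called moved by over 1.5 times as follows. Between IFNγ and IFNβ (5), cyclic loess, no detection filter, detection on all 15 arrays and leaving out both arrays of lowest weight each gave 3, only the groups compared gave 2, and array weights gave 8. Between IFNγ and LPS and LPS alone (3), detection on all 15 arrays and only the groups compared gave 1, a trend in the variance and leaving out both arrays of lowest weight 5, and array weights 6. Between IFNγ and LPS and IFNβ and LPS (5), detection on all 15 arrays and the replicate block gave 2, and only the groups compared and only the arrays of the slide gave 1. With the replicate block, IFNβ against control gave 1 in place of 2 and the interaction of IFNγ with LPS gave 3 in place of 6. Detection on all 15 arrays gave 1 in place of 0 for the interaction of IFNβ with LPS, Trim30d, and 7 responsive members in place of 11, with fewer genes tested. Other causes were not tested.

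With each array left out in turn, the counts ran from 6 to 9 for IFNγ, 1 to 2 for IFNβ, 10 to 13 for LPS, 2 to 5 for IFNγ under LPS, 0 to 1 for IFNβ under LPS, 0 to 5 between the interferons, 1 to 6 between them under LPS, 3 to 7 for the interaction of IFNγ and 0 to 0 for that of IFNβ; the responsive members numbered 9 to 12. A group left with 1 array was assumed to vary like the others. The 3 higher and 5 lower calls with IFNγ became 4 and 4 under median scaling and cyclic loess; these shifted the median of all genes by 0.14 and 0.16 for LPS against control. Deviations of arrays with the same replicate number correlated at -0.43 to 0.21 (median -0.02, 33 pairs), so the numbers were not taken as pairs, and the block changed the calls above. Fits on the arrays of 1 slide could not be made for LPS against control or the interactions. Dim members limit these data: 11 of the 25 were not detected on every array of every group.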

Other observations

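In the table, 9 Trim symbols were not detected on every array of any group: Trim2, Trim9, Trim17, Trim40, Trim44, Trim46, Trim62, Trim63 and Trim72. Of these, Trim63 was detected on 6 arrays, Trim2 and Trim46 on 3, and Trim17, Trim44 and Trim72 on 0. Trim45 and Trim65 passed the detection filter only through the 2 IFNβ arrays, where Trim45 read 5.81 and 5.83 and Trim65 5.53 and 5.99.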
